A study of Rattus norvegicus with 23 samples.

Results

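Prss30 is a serine protease gene that was among the most over-expressed in the lungs of exposed elderly rats on D0, the day exposure ended, and it was followed here together with 8 genes of mast cells: Cma1, Cpa3, Tpsab1, Tpsb2, Kit, Ms4a2, Fcer1a and Hdc. Members were found by their symbol in the annotation of one array file, matched by probe, which gave 12 probes of 45598 and 9 genes of the 23030 genes tested. Prss30 was chosen for its rise on D0 in these same rats, so its D0 values are given as a description with no test. The mast cell genes were taken for their cell type. Lung RNA had been measured in 23 male F344 rats that were 19 months old when exposure began, with 1 rat and 1 single-colour array each. Exposed rats breathed an aerosol of TiO2 nanoparticles at 10 mg/m3 through the nose only, for 6 h a day on 5 days a week over 4 weeks, while control rats breathed filtered air under the same regimen. RNA of the accessory lobe came, on D0, from 6 controls and 5 exposed animals, and 28 days later, on D28, from 6 of each kind. The paper names 6 rats for each group and day, and no array of the remaining exposed rat of D0 was among the data used here. It states that outliers were removed where necessary, without saying which. The source label of the exposed D28 arrays reads day 0 whereas their titles and descriptions give 28, which was followed.

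Mast cells mature in tissues under the growth factor receptor Kit and store histamine, made by Hdc, in granules with proteases: the chymase Cma1, the tryptases Tpsab1 and Tpsb2 and the carboxypeptidase Cpa3. The high-affinity receptor for IgE, whose ligand-binding chain is Fcer1a and whose beta chain is Ms4a2, arms them for release. In the lung they lie around airways, vessels and the pleura. Prss30 is a trypsin-like serine protease of the same broad family as the tryptases, first described in the intestine and known as an activator of the epithelial sodium channel, and it is not a classical mast cell gene.

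Each value rests on how a 60-base probe hybridised. The first 30 bases of the Prss30 probe, at chr10:13226073-13226132 of rn4 on the minus strand, are shown beside those of the mast cell proteases, because a rise of Prss30 could be read as a rise of a related protease if the probes were alike. The longest run of identical bases that the whole Prss30 probe shared with any probe of the 8 mast cell genes was 4 to 7 bases. Probes were compared with probes and not with whole transcripts. Whether a transcript of a related protease bound the Prss30 probe was therefore not tested. Probe positions are those of the array files, which name the transcript and not the exon.
Prss30: ggcaggaggtcctctgaggtcatacacaca
Cma1: gcttccagaaggttcttacaagtcacagaa
Cpa3: accaaacttttggaccggatgaatttttat
Tpsab1: tcaggtagccacactgtacaggcagccact
Tpsb2: tgttcccattgtccaggatggcatgctgtg
The Tpsab1 probe lay at chr10:14591591-14591650 and the Tpsb2 probe at chr10:14614370-14614429 of rn4, on the chromosome of Prss30. The Cma1 probe lay at chr15:34083229-34083288 and the Cpa3 probe at chr2:105385518-105385577. Tpsab1 and Tpsb2 are close relatives, and whether either transcript bound the other's probe was not tested.

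A motif of mast cell genes was looked for in the promoters. GATA factors, which bind GATAA on either strand (TTATC on the other), drive many of them, and the RefSeq promoter table of build GRCr8 held 8 of the 9 members, without Ms4a2. In the 250 bases before the start, Cma1, Cpa3, Tpsab1 and Fcer1a held the motif, and Prss30, Tpsb2, Kit and Hdc did not, against 23.5% of 33469 promoters in the table. An NF-kB motif, present in 3.54% of them, was in none of the 8. Prss30 is printed beside Cpa3 and Fcer1a, which varied together from rat to rat, and beside the tryptase Tpsab1, with the GATA motif in capitals. The windows were chr10:13515606-13515855, chr2:104673238-104673487, chr13:88224680-88224929 and chr10:14867303-14867552 in this order, all on the minus strand. A match describes letters only, and was not tested as a site.
Prss30: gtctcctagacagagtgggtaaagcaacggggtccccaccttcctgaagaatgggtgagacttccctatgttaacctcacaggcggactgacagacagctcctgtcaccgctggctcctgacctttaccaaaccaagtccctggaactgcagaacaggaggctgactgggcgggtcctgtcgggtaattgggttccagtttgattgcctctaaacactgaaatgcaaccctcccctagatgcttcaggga
Cpa3: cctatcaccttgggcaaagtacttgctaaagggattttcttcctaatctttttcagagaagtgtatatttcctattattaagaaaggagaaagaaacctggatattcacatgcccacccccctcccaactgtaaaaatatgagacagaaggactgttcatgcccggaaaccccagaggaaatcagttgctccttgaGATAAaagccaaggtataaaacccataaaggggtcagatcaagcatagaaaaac
Fcer1a: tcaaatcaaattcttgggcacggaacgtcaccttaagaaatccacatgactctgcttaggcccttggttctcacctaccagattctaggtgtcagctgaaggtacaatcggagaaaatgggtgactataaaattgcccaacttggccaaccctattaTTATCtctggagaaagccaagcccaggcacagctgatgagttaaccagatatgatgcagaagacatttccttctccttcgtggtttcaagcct
Tpsab1: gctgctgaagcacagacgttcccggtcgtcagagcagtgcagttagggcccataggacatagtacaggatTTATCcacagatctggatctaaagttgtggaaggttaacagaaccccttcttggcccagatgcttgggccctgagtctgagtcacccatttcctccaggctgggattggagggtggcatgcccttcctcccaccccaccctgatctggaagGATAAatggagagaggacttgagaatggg

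All values below are log2 signals of a gene after background correction within the array and quantile normalization between arrays, and a difference of 1 is a doubling. Over the arrays 69.5 to 77.9% of spots were well above background and the 75th percentile of the signal was 1383 to 3470 before normalization. The number of arrays limits the precision. Genes were called DEGs at a Benjamini-Hochberg adjusted p of limma below 0.05 over 23030 genes and a fold change (FC) of at least 1.5. On D0 1.79% of genes tested were DEGs, and on D28 0.756%. The 9 type II and 6 type I pneumocyte markers were all measured in these lungs. The arrays lay on 5 slides, of which one held a single array, that of control rat 4 of D28.

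Prss30 was high in every exposed rat on D0. Its signal was 9.97, 10.08, 10.38, 9.80 and 10.21 in exposed rats 1 to 5, whereas the 6 controls had a lowest value of 7.34, a median of 7.49 and a highest of 7.79. All 5 exposed rats lay above all controls, with the lowest exposed rat, number 4, still clear of the highest control. The means were 10.09 ± 0.22 (SD, n = 5) and 7.52 ± 0.16 (SD, n = 6). The log2 FC was 2.56 (standard error 0.19), or FC = 5.92. It ranked 7 among 23030 genes by its log2 FC, the value it was chosen for, and exposed rats lay above all controls in 1.94% of genes on that day. On the 4 slides that held both kinds of rats of D0 the log2 difference was 2.49, 2.10, 2.76 and 2.88.

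**Figure D1:**
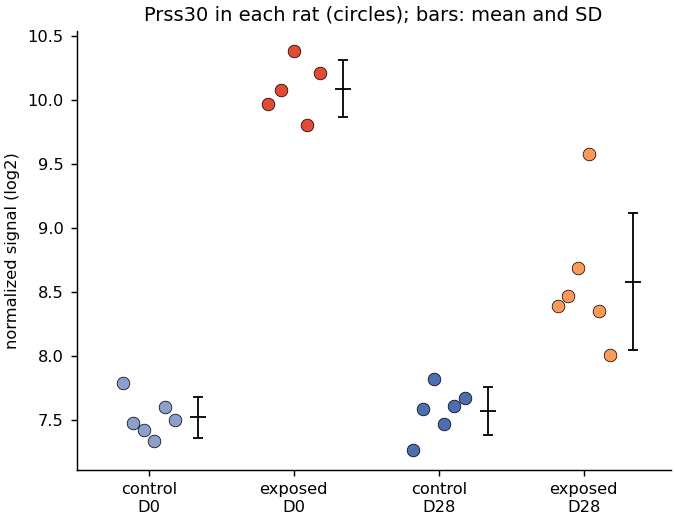
Prss30 signal on the log2 scale (vertical) in each of 23 rats (circles) by group, with the mean and SD of each group as a bar to the right. The 5 exposed rats of D0 sit between 9.80 and 10.38, the 6 exposed rats of D28 between 8.01 and 9.58, and all 12 controls between 7.27 and 7.82.

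On D28 Prss30 was still over-expressed. No rat of that day had a part in choosing it, although its D28 result was known. The limma fit took its error from all 4 groups, so the D0 rats that had chosen the gene entered it. Their SDs were 0.22 in exposed and 0.16 in control rats. The 6 exposed rats had values of 8.01 at the lowest, 8.43 at the median and 9.58 at the highest, and the 6 controls 7.27, 7.60 and 7.82. Exposed rat 4 stood highest with 9.58, while the other 5 lay between 8.01 and 8.69, and all 6 were above all controls, as was so for 0.677% of genes. The means were 8.58 ± 0.54 (SD, n = 6) and 7.57 ± 0.19 (SD, n = 6), a log2 FC of 1.01 (standard error 0.18). This was FC = 2.01 with a 95% confidence interval of 1.55 to 2.62 (limma, adjusted p = 0.00647). A two-sided exact permutation test over the 12 rats gave p = 0.00216, the smallest that 6 against 6 allow. When only D28 arrays entered the limma fit the log2 FC was the same but the adjusted p was 0.108, and 42 genes in place of 174 were DEGs. Without exposed rat 4 the log2 FC was 0.81 (adjusted p = 0.00215), and on the 3 slides with both kinds of rats of D28 the differences were 1.09, 1.08 and 0.80.

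In order of level, controls of D0 and of D28 (7.52 and 7.57) overlapped, exposed rats of D28 came next at 8.58, and exposed rats of D0 were highest at 10.09. The highest exposed rat of D28 (9.58) lay below the lowest exposed rat of D0 (9.80). The log2 FC was lower on D28 than on D0, by a difference of -1.55. It is given with no interval or test because the D0 rats had chosen the gene.

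None of the mast cell genes was over-expressed with it. On D0 all 8 had a negative log2 FC, with a median of -0.34 against -7e-04 over all genes, where 49.9% were positive. With limma 0 of the 8 were DEGs (1.79% of all genes), and 2 had an unadjusted p below 0.05, Cma1 and Hdc, both lower in exposed rats, against 11.9% of all genes. The highest upper limit among their 95% intervals was 0.90, that of Tpsab1, an FC of 1.87. In lung tissue, fewer cells of a type and less RNA per cell cannot be told apart.

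**Figure D2:**
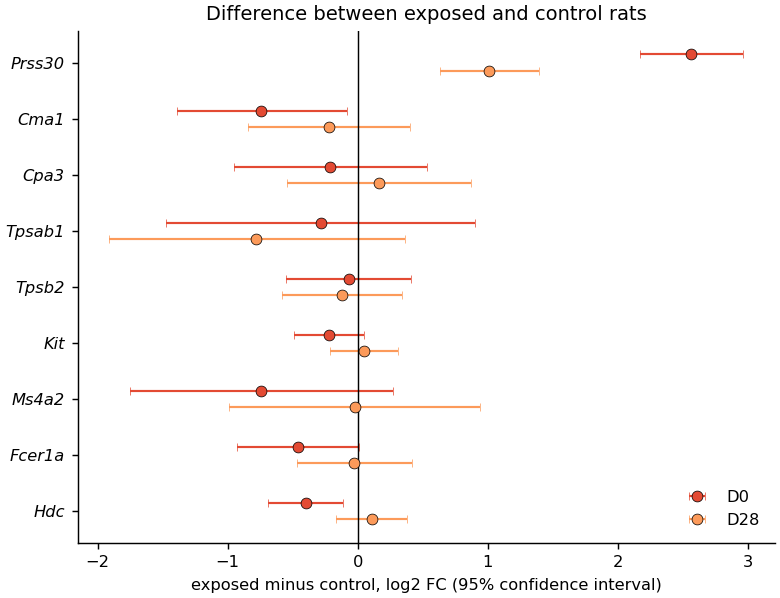
Log2 FC between exposed and control rats (horizontal) with its 95% confidence interval from limma for Prss30 and the 8 mast cell genes, on D0 (red) and D28 (orange). Prss30 lies at 2.56 and 1.01, and the intervals of 6 of the 8 mast cell genes on D0 and of all 8 on D28 hold 0. The D0 interval of Prss30 does not allow for its choice by that rise and is not a test.

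Among the granule proteases, Cma1, the chymase, had signals of 6.85, 7.20, 6.92, 7.95 and 6.60 in exposed rats 1 to 5 on D0 and 7.05, 7.80 and 8.85 at the lowest, median and highest in controls. Exposed rats 1, 3 and 5 lay below all controls, and rat 4 was within the upper part of the control range. The log2 FC was -0.74 (standard error 0.31, limma adjusted p = 0.309). Cpa3, the carboxypeptidase, had 5.43, 6.22, 5.04, 6.82 and 5.92 in exposed rats, and 5.66, 6.10 and 6.48 at the lowest, median and highest in controls. Rat 4 was above all controls and rats 1 and 3 below them, and the log2 FC was -0.21 (0.36, adjusted p = 0.964).

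The tryptase Tpsab1 varied most from rat to rat among the proteases. It had 5.54, 5.51, 5.41, 7.78 and 6.21 in exposed rats on D0, and controls ran from 5.37 through a median of 6.16 to 8.41, the value of control 1. The groups overlapped throughout, and the log2 FC was -0.28 (0.57, adjusted p = 0.974). Tpsb2, the second tryptase, had 5.43, 5.51, 5.73, 6.62 and 5.63 in exposed rats and 5.49 to 6.14 in controls, with rat 4 above all of them. Its log2 FC was -0.07 (0.23, adjusted p = 0.994).

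Exposed rat 4 of D0 had the highest Cma1, Cpa3, Tpsab1, Tpsb2 and Fcer1a of its group together with the lowest Prss30, Kit and Hdc. Without it the log2 FC on D0 was -0.95 for Cma1, -0.44 for Cpa3, -0.71 for Tpsab1 and -0.28 for Tpsb2, none past the threshold, and 2.64 for Prss30. The array of this rat lay on slide 3, which had the highest means of Cpa3 (6.40), Tpsb2 (6.17) and Fcer1a (5.60) among the slides. The mean of Cma1 was highest on slide 5 (8.12) and that of Tpsab1 on slide 2 (8.42). Against the 2 D0 controls on slide 3, this rat differed by 0.79 in Cpa3, 0.89 in Tpsab1, 0.62 in Tpsb2 and 0.26 in Fcer1a. In Cma1 it differed by -0.01, in Kit by -0.62 and in Hdc by -0.95. The part of the slide in its values was not tested.

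Among the receptors, Kit had signals of 11.08, 10.98, 11.14, 10.40 and 10.60 in exposed rats 1 to 5 of D0, and 10.92, 11.02 and 11.26 at the lowest, median and highest in controls. Rats 4 and 5 were below all controls and the other 3 among them, with a log2 FC of -0.22 (0.13, adjusted p = 0.605). Kit is also made outside mast cells, so that in whole lung it does not mark them alone. Fcer1a, the IgE-binding chain, had 4.63, 5.02, 4.71, 5.77 and 4.64 in exposed rats against 5.22 to 5.52 in controls. Rats 1, 2, 3 and 5 lay below all controls and rat 4 above them, with a log2 FC of -0.46 (0.22, adjusted p = 0.435). Its 2 probes disagreed, with -0.03 (0.30) for one and -0.89 (0.30, limma adjusted p = 0.182 over all probes) for the other, which on D0 rose well above background in all 6 controls but in 3 of 5 exposed rats. Ms4a2, the beta chain, was near background: on D0 only 2 of 6 controls and 1 of 5 exposed rats had a signal well above it, and on D28 4 of 6 controls and 3 of 6 exposed rats. Its log2 FC was -0.74 (0.49, adjusted p = 0.668), with an interval of -1.75 to 0.27.

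Hdc, the enzyme that makes histamine, had signals of 9.25, 9.14, 9.41, 8.63 and 9.52 in exposed rats 1 to 5 of D0, and 9.46, 9.55 and 9.81 at the lowest, median and highest in controls. Rats 1 to 4 lay below all controls and rat 5 was among them. The log2 FC was -0.40 (0.14, limma adjusted p = 0.153), the lowest adjusted p of the 8 genes on that day, and both Hdc probes were lower, by -0.38 and -0.42. Without rat 4 the log2 FC was -0.26.

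**Figure D3:**
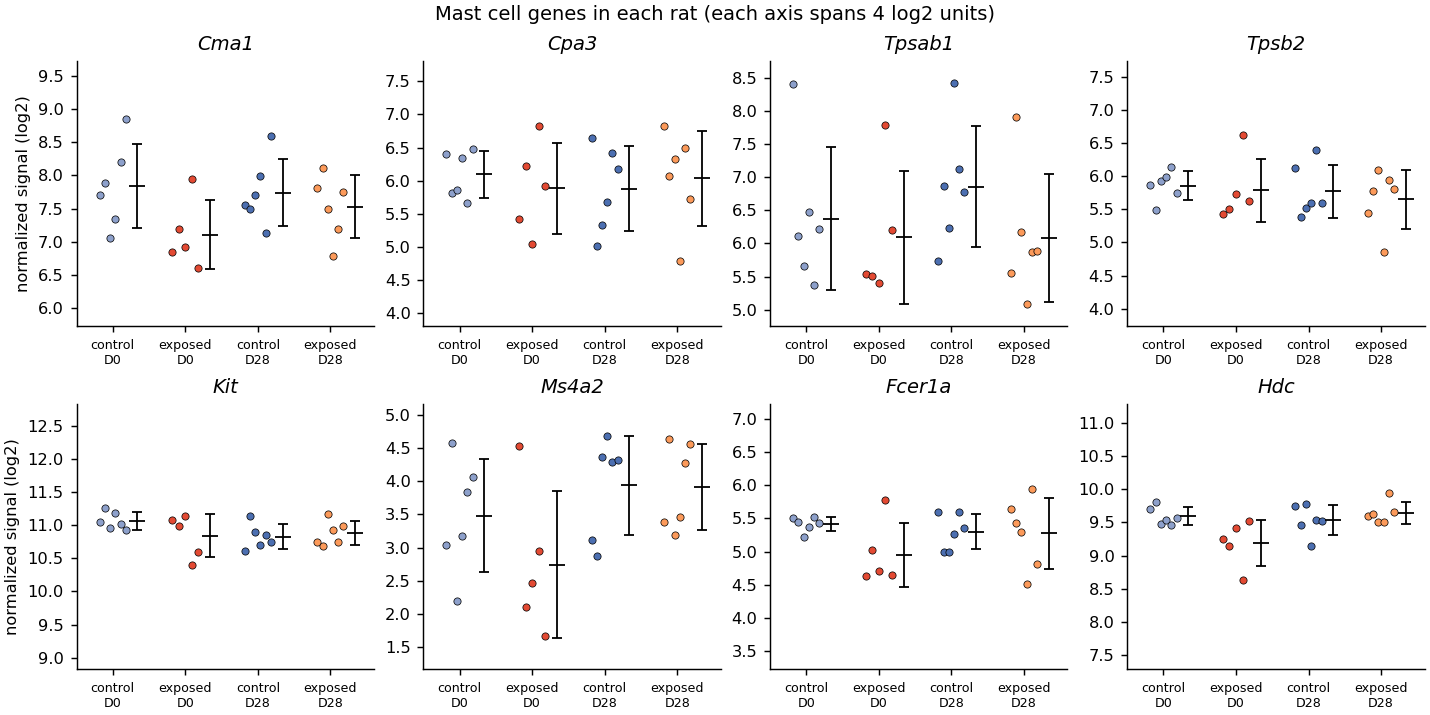
Log2 signal (vertical) of each mast cell gene in each rat (circles) by group, with the mean and SD as a bar; every vertical axis spans 4 log2 units. The exposed and control rats of each day overlap for all 8 genes.

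On D28 3 mast cell genes had a positive and 5 a negative log2 FC, with a median of -0.025. With limma 0 of the 8 were DEGs (0.756% of all genes) and 0 had an unadjusted p below 0.05 (11% of all genes). The values ran from -0.78 (0.54, adjusted p = 0.683) for Tpsab1 to 0.16 (0.34, adjusted p = 0.937) for Cpa3. Tpsab1 had 5.08, 5.88 and 7.90 at the lowest, median and highest in exposed rats and 5.73, 6.82 and 8.42 in controls. Cma1 was at -0.22 (0.30), Kit at 0.05 (0.12), Ms4a2 at -0.02 (0.46), Fcer1a at -0.03 (0.21) and Hdc at 0.11 (0.13). Exposed rat 4, which had the most Prss30 of its group, had the lowest Cma1, Cpa3, Tpsab1, Tpsb2 and Fcer1a. Its array lay on slide 1, which had the lowest means of Cpa3 (5.35), Tpsb2 (5.41) and Fcer1a (4.90) among the slides. The means of Cma1 (7.20) and Tpsab1 (5.88) were lowest on slide 4. The part of the slide in these values was not tested. The upper limits of the 8 intervals reached at most 0.94, an FC of 1.92.

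The change between the days was tested as well. For the difference between the D28 and the D0 effect 0 of the 8 were past the adjusted p of limma (0.0304% of all genes) and 1, Hdc, had an unadjusted p below 0.05 (3.44% of all genes), with a difference of 0.51 (standard error 0.19, adjusted p = 1). Between controls of D28 and of D0 0 of the 8 were DEGs (0.608% of all genes) and 0 had an unadjusted p below 0.05 (13.3% of all genes), with values from -0.24 for Kit to 0.48 for Tpsab1. Prss30 differed by 0.05 between the controls of both days, given with no test.

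Other genes tied to mast cells, from lists drawn up from general knowledge, were followed beside the members. Of 15 other mast cell proteases 9 were measured. With limma 0 were DEGs on D0 and 0 on D28, 2 had an unadjusted p below 0.05 on D0 and 0 on D28 (11.9% and 11% of all genes), and the median log2 FC was -0.35 and -0.036. The lowest on D0 was Mcpt9, with 8.24 ± 0.67 (SD, n = 5) in exposed and 9.06 ± 0.28 (SD, n = 6) in control rats, a log2 FC of -0.82 (0.24, adjusted p = 0.0717), followed by Mcpt10 with -0.75 (0.22, adjusted p = 0.0759). Mcpt9 and Mcpt10 encode granule proteases, and 4 of 5 exposed rats lay below all controls for each. The highest was Mcpt1l2 at 0.27 (0.23). Members of this family are near copies, so that a probe may read more than one of them. Mcpt3, Mcpt4 and Ctsg were below the filter.

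Of 22 genes of mast cell growth and activation 19 were measured, with a median of 0.066 on D0 and -0.039 on D28, and 1 was a DEG. At an unadjusted p of limma below 0.05, 2 were higher and 3 lower on D0, against 11.9% of all genes. On D28 1 was higher and 0 lower at that p, against 11%. Adora3, the adenosine receptor A3, was over-expressed on D0, with 5.34 ± 0.28 (SD, n = 5) against 4.54 ± 0.35 (SD, n = 6), a log2 FC of 0.80 (0.18, limma adjusted p = 0.0169), and 4 of 5 exposed rats above all controls. On D28 its log2 FC was 0.46 (0.17, adjusted p = 0.264). Adora3 is also made by eosinophils and macrophages. On D0 no exposed rat had a signal well above background for Gata1 or Il4, and no control for Mrgprx2, and none of the 3 was a DEG. Il4 had a log2 FC of -1.76 (0.60, limma adjusted p = 0.145). The paper, whose fit included a batch correction that was not applied here, named it as under-expressed on D0 in elderly rats only. Of 16 genes of mast cell mediators and histamine handling 15 were measured, and with limma 0 were DEGs on either day, with 1 and 0 at an unadjusted p below 0.05. They lay between -0.41 for Slc18a2, the transporter that loads histamine into granules, and 0.25 for Aoc1, which degrades it, on D0.

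Basophils and eosinophils share several of these genes. Of 8 of their markers 6 were measured. With limma 3 had an unadjusted p below 0.05 on D0 and 1 on D28, all lower, against 11.9% and 11% of all genes. Alox15, an arachidonate lipoxygenase, was the only DEG. It was under-expressed on D0, with 5.99 ± 0.49 (SD, n = 5) against 7.02 ± 0.29 (SD, n = 6), a log2 FC of -1.03 (0.24, adjusted p = 0.0213), and had a log2 FC of -0.86 (0.23, adjusted p = 0.0727) on D28. The mean over the 6 markers ranged from 5.89 to 6.23 in exposed rats and from 6.32 to 6.80 in controls on D0, and their part in the values of the mast cell genes was not tested.

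Since Prss30 activates a sodium channel, the channel and other proteases of that kind were followed too. Of 24 listed genes 16 were measured, with a median of 0.013 on D0 and 0.070 on D28. On D0 0 were DEGs with limma and 3 had an unadjusted p below 0.05, against 11.9% of all genes. These were St14, the protease matriptase, with a log2 FC of 0.38 (0.11, adjusted p = 0.0777), Tmprss4, and the channel subunit Scnn1g with -0.34 (0.10, adjusted p = 0.0838). All 5 exposed rats lay above all controls for St14, as was so for 1.94% of genes. The 16 genes ranged from -0.39 (0.21, adjusted p = 0.51) for Scnn1a, another subunit, to 0.87 (0.53, adjusted p = 0.627) for Prss22, whose signal stood well above background in only 3 of 6 controls and 4 of 5 exposed rats. On D28 Tmprss4, a membrane-bound serine protease, was over-expressed, with 6.01 ± 0.16 (SD, n = 6) against 5.28 ± 0.40 (SD, n = 6), a log2 FC of 0.73 (0.17, adjusted p = 0.0329) and 6 of 6 exposed rats above all controls, as was so for 0.677% of genes. Its log2 FC on D0 was 0.54 (0.18, adjusted p = 0.121).

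**Figure D4:**
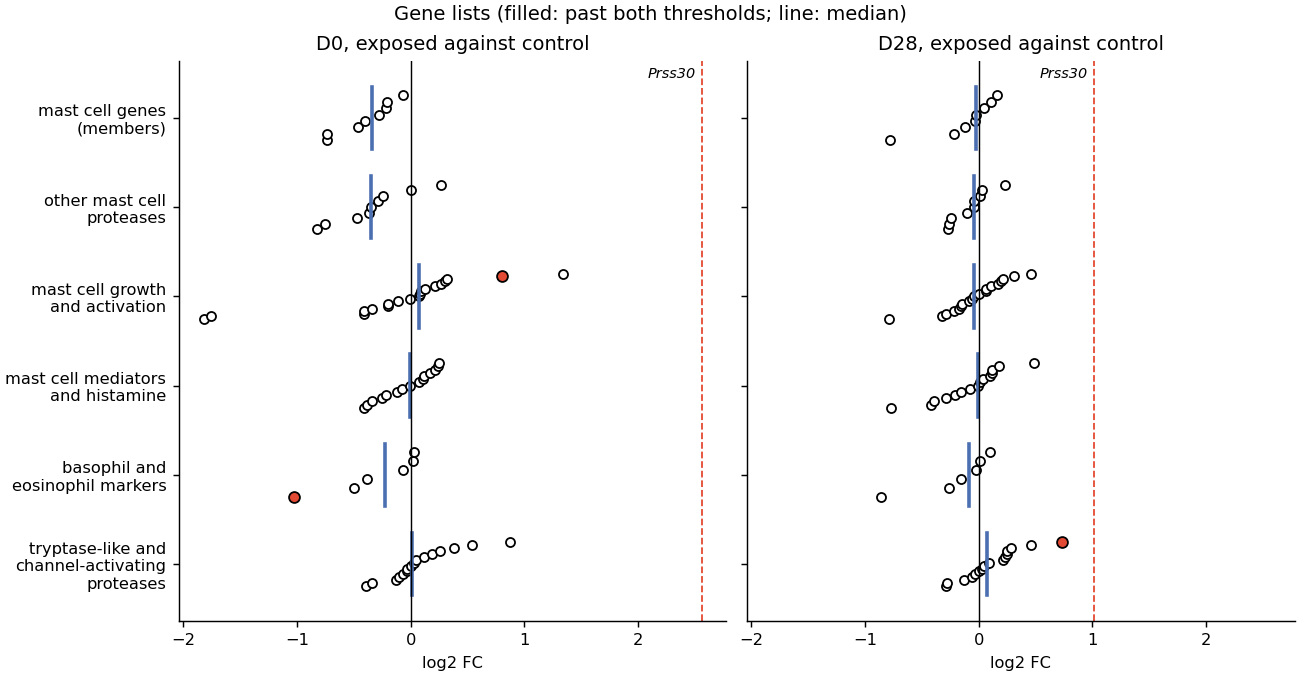
Log2 FC of each measured gene (circles, horizontal) in lists of mast cell and related genes (rows) on D0 and D28, where filled circles are DEGs, blue lines the list medians and the dashed line Prss30 at 2.56 and 1.01. The points past -1.5 and past 1 among growth and activation genes on D0 are Gata1, Il4 and Mrgprx2, each without a signal well above background in one of the groups.

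Markers of other lung cells were set beside these values, and their part in them was not tested. Of 6 mesothelial markers all had a negative log2 FC on D0 and 3 were under-expressed DEGs, Upk1b at -0.65, Wt1 at -0.62 and Lrrn4 at -0.62, and the list mean ran from 9.46 to 9.76 in exposed and from 9.95 to 10.22 in control rats. On D28 all 6 had negative values and 0 were DEGs with limma, with 5 at an unadjusted p below 0.05. Among 8 markers of secretory airway cells Bpifb1, a secreted lipid-binding protein, was over-expressed on both days, by 2.30 (0.28, adjusted p = 9.42e-05) and 1.21 (0.26, adjusted p = 0.0246), while the list medians were -0.22 and -0.20. At an unadjusted p of limma below 0.05, 2 of the 8 were higher and 2 lower on D0, and 1 higher and 2 lower on D28. Of 9 macrophage markers Siglec1 was over-expressed on D0 by 0.89 (0.16, adjusted p = 0.00262), and Cd68 passed the adjusted p on both days below the FC limit, with 0.55 (0.10, adjusted p = 0.00293) on D0, when all 5 exposed rats lay above all controls (1.94% of genes), and 0.42 (0.09, adjusted p = 0.0293) on D28. Of the 9, 8 had a positive log2 FC on D0 and 7 on D28, with 3 and 4 at an unadjusted p below 0.05, all higher, and medians of 0.30 and 0.19. The neutrophil, ciliated, type I, type II, smooth muscle, fibroblast and T cell lists held 0 DEGs on either day with limma. Like Cd68, genes of other lists passed the adjusted p on D0 below the FC limit. Lower were fibroblast Mfap5 at -0.58 (0.09, adjusted p = 0.000634) and type I Aqp5 at -0.47 (0.12, adjusted p = 0.0318). So were mesothelial Upk3b at -0.55 (0.14, adjusted p = 0.0316) and Msln at -0.36 (0.10, adjusted p = 0.0486). Type II Sftpd was higher, at 0.37 (0.10, adjusted p = 0.0469). Of 9 type II pneumocyte markers 9 had a positive log2 FC on D0 and 8 on D28, with 5 and 4 at an unadjusted p below 0.05, all higher, where 11.9% and 11% of all genes had one in either direction. Of 6 type I pneumocyte markers all were negative on both days, with 2 and 1 at that p, and of 7 ciliated cell markers 6 were negative on both days, with 2 and 4 at that p, all lower. The neutrophil, smooth muscle, fibroblast and T cell lists had 0 to 2 genes at that p on a day, all lower. These lists read RNA of the accessory lobe. In lavage fluid of the left lobe, the paper reported higher percentages of neutrophils and lymphocytes in exposed elderly rats on both days.

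Whether rats with more Prss30 had more of a mast cell gene was examined within groups. In the 3 groups with 6 rats, 24 relations were computed between Prss30 and the 8 genes. Pearson's r ran from -0.73, for Tpsb2 in exposed rats of D28, to 0.66, for Fcer1a in controls of D0, and 13 were positive and 11 negative. Without the 2 rats of the group farthest in Prss30, r was 0.60 for the first and 0.87 for the second, neither tested. Their rho over all 6 rats was -0.31 and 0.83. By exact permutation 0 of 24 passed after Benjamini-Hochberg adjustment, and 0 had an unadjusted p below 0.05, with p = 0.114 the lowest and 0.00139 the smallest that 6 rats allow. By Spearman's rho 1 had an unadjusted p below 0.05, Hdc in exposed rats of D28 (rho = -0.89, exact permutation p = 0.0333, adjusted p = 0.700). No correlation was computed within the 5 exposed rats of D0, since at least 6 rats were asked for.

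**Figure D5:**
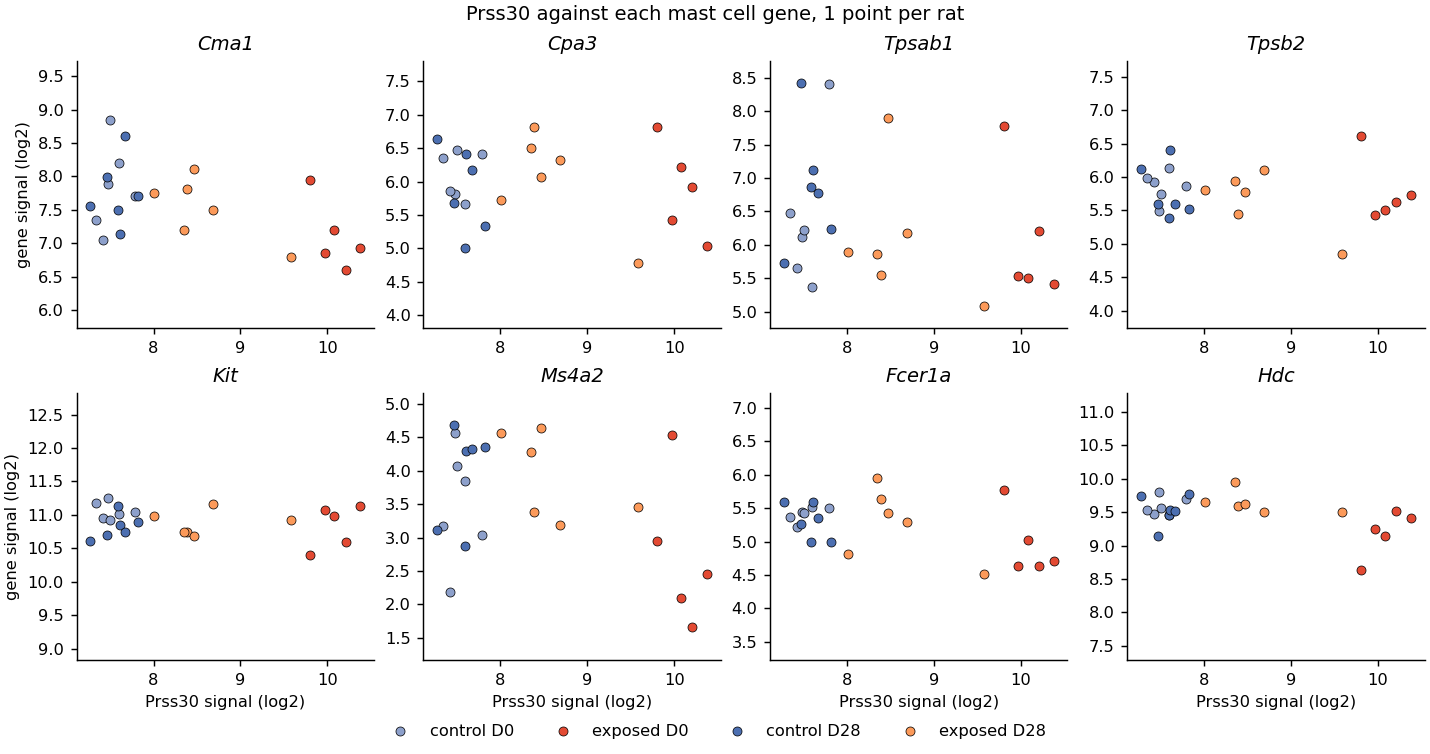
Log2 signal of each mast cell gene (vertical) against that of Prss30 (horizontal), with 1 point per rat and colours for the groups. The exposed rats of D0 lie to the right at Prss30 signals of 9.80 to 10.38, and for none of the 8 genes do they lie above the range of the other rats as a group.

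One pair of mast cell genes, Cpa3 and Fcer1a, did vary together. Over the deviations of 23 rats from their group means, r was 0.83 (permutation p = 6e-05) and rho 0.81 (permutation p = 0.00016), 1 of 36 pairs of the 9 genes past Benjamini-Hochberg adjustment (adjusted p = 0.00216). Leaving out the 2 rats farthest in Cpa3 gave 0.74. Both moved with the slide: the mean of Cpa3 was 5.35 on slide 1 and 6.40 on slide 3, and that of Fcer1a 4.90 and 5.60. Over deviations from the mean of group and slide r was 0.71. For Cpa3 with Tpsb2 r was 0.64 (permutation p = 0.0056, adjusted p = 0.0672) and within group and slide 0.32. For Tpsb2 with Fcer1a it was 0.70 (permutation p = 0.00442, adjusted p = 0.0672) and 0.29. Kit had an r of -0.56 with Cpa3 (permutation p = 0.0164, adjusted p = 0.148), and of -0.38 within group and slide. Its r with Fcer1a was -0.54 (permutation p = 0.0274, adjusted p = 0.165), and -0.35 within group and slide. With scaling to the 75th percentile 3 pairs were past the adjustment: Cpa3 with Fcer1a, Cpa3 with Tpsb2 and Tpsb2 with Fcer1a. Of the 8 pairs with Prss30 0 were past it, with r from -0.54 for Cpa3 (permutation p = 0.0275, adjusted p = 0.165) to 0.24 for Kit.

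The genes most like Prss30 in pattern were not mast cell genes. Pearson's r over the 23 arrays follows mainly the 4 group means, and so the D0 rise that Prss30 was chosen for. By this r the most alike were Sod2 (0.93), Zfand2a (0.92), Slc16a6 (0.91), Ccl7 (0.91) and B3gnt7 (0.90). Sod2 is the mitochondrial superoxide dismutase and Ccl7 a chemokine for monocytes. In that order of 23029 genes the mast cell genes ranked from 15758 for Kit (r = -0.13) to 22069 for Cma1 (r = -0.54). Over the deviations from group means the most alike were LOC100911366 (0.85), RGD1309028 (0.81), LOC103690586 (0.81), Cyp11b1 (0.81) and LOC102554424 (0.80), and the mast cell genes ranked from 4190 for Kit to 22496 for Cpa3. The largest deviation of Prss30 was that of exposed rat 4 of D28 (1), followed by exposed rat 6 of D28 (-0.57), so rat 4 weighed most in the second order. These values describe 23 arrays that share slides and groups.

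The genes beside Prss30 in the genome were examined too. Of the 5 genes on each side in the RefSeq order, 9 were measured: Prss21, Csap1, Sbp, Zg16b, Prss22, Prss27, Kctd5, Pdpk1 and Amdhd2. With limma 0 were DEGs on D0 and 0 on D28, and 1 had an unadjusted p below 0.05 on each day (11.9% and 11% of all genes). Prss22 had a log2 FC of 0.87 (0.53) and Csap1 of 0.67 (0.37, adjusted p = 0.534) on D0. Amdhd2 passed the adjusted p on D28 with a log2 FC of 0.48 (0.12, adjusted p = 0.0418), which was below the FC limit.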

How the data were processed

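The members and all gene lists were chosen with earlier results of these data known. The authors deposited the intensity output of Agilent Feature Extraction for each array, version 11.0.1.1 in the submitters' processing notes and 12.0.1.1 on 1 array, and a table of all arrays with 62976 spots. The processed signal had its background removed array by array, with no normalization from one array to the next. Log2 of it was taken, outlier spots were set missing, probes above the 95th percentile of 308 negative controls on at least 5 arrays were kept (40418 of 45598), arrays were quantile normalized, and 32416 probes with a symbol were averaged to 23030 genes after 29 with a missing value were dropped. One limma model (version 3.58.1, R 4.3.3) had a mean for each of the 4 groups and 19 residual degrees of freedom. The authors' methods correct for batches that they do not name, so no batch term was used. On simulated data limma called 61.0% of genes shifted by 1 and 94.0% of those shifted by 2 on the log2 scale on D0. Correlations were tested by exact permutation, or by 100000 resamples over 23 rats. The named genes were the 9 members, DEGs of the lists, the extremes of a list given by range, and the 5 genes most like Prss30 by each measure. Mcpt10, Il4, St14, Scnn1g, Cd68, Mfap5, Aqp5, Upk3b, Msln, Sftpd, Csap1 and the neighbours of Prss30 were named after their values were seen. The permutation test of Prss30 on D28 and the correlations between pairs of members were added after seeing the data. Samples were grouped by title. The young rats of the study were not analysed here.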

Additional observations from a re-analysis of the deposited data

Results flagged for a closer look

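Each of the 9 genes in each of the 4 groups was examined for a rat far from the others of its group, and 3 of 36 groups had one, where chance flags about 1 in 20. Tpsab1 in control rat 1 of D0 had a log2 signal of 8.41, and the nearest control had 6.47. Tpsb2 in exposed rat 4 of D0 had 6.62, and the nearest exposed rat had 5.73. Hdc in exposed rat 5 of D28 had 9.95, and the nearest had 9.66. The Prss30 value of exposed rat 4 of D28 (9.58) was not among them.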

How the results depend on the processing

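Prss30 was higher in exposed rats on both days in all settings. Its log2 FC on D0 was 2.21 to 2.58 over 10 settings, with 2.21 under normexp background correction the farthest from 2.56, and 2.49 to 2.64 when 1 array was left out. On D28 it was 0.81 to 1.01 over 10 settings and 0.81 to 1.13 over 23 fits without 1 array (adjusted p = 0.00215 to 0.0151), and passed both thresholds in all but the fit of D28 arrays alone (1.01, adjusted p = 0.108). Leaving out exposed rat 4 as well, chosen after seeing the data, gave 0.81 (adjusted p = 0.0553). Apart from the fits without 1 array, the number of DEGs over all genes ranged on D0 from 221 with normexp to 659 without an FC limit, against 412, and on D28 from 42 in the fit of D28 alone to 303 without an FC limit, against 174. The number of mast cell genes called was 0 of 8 on D0, on D28, in the difference and in the controls under every setting run, or 0 of 7 under the stricter filter on dim probes (all arrays of at least 1 group well above background), which left out Ms4a2. Of 534 recomputed log2 FC of these genes, 507 kept their direction, and 533 moved by less than 1 SD between rats. The exception was Fcer1a on D0, at -0.03 with its brightest probe. Tpsab1 on D0 was 0.12 without control rat 1. With the replicate number as a block, the log2 FC of Prss30 was 2.53 on D0 and 1.01 on D28 (adjusted p = 0.0204), and no call changed. The numbers do not pair the rats, since deviations of the 33 same-numbered pairs correlated at -0.301 to 0.455 with a median of -0.023. The slide block, in which the array alone on its slide has no weight, gave 1.01 on D28 (adjusted p = 0.0156). Correlations without the 2 rats farthest in Prss30 left 4 rats and were not tested. Ms4a2 near background and groups of 5 or 6 rats limit what could be seen for the mast cell genes.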
